A study of Mus musculus with 79 samples.

Results

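Atp6v0d2 and 8 macrophage or lysosome genes (Gpnmb, Cd68, Mmp12, Itgax, Trem2, Lgals3, Emr1 and Ccl2) were followed in the quadriceps of the BXD mouse family. The 9 genes were chosen by name from the 22335 gene symbols on the Affymetrix Mouse Gene 1.0 ST array, and each was covered by 1 probeset. They were picked with earlier results of the diet contrast in view, so their diet differences are given as a description with no test. The tests below concern whether the 8 other genes vary with Atp6v0d2 between strains, which that contrast did not use. The animals were males of C57BL/6J, DBA/2J and the inbred BXD strains bred from crosses of these parents. They ate chow diet (CD, Harlan 2018) or high fat diet (HFD, Harlan 06414), which was begun at 8 weeks, and all were killed at 29 weeks after a night without food. Each of the 79 arrays, 42 on CD and 37 on HFD, held pooled RNA of about 5 animals of 1 strain on 1 diet. Arrays on both diets were made for 37 strains, and 5 further strains were on CD alone. A pool gives no spread between animals, so every error below rests on a spread between strains, of their scores or of their diet differences. Errors and intervals of the diet difference come from a fit with diet and batch but no strain term. They therefore do not use the pairing of strains.

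The vacuolar ATPase is a proton pump that acidifies lysosomes, the compartments in which a cell digests protein and lipid. Its d subunit, which joins the membrane sector to the rotating shaft, has an isoform found in most cells, encoded by Atp6v0d1, and an isoform known from osteoclasts and macrophages, encoded by Atp6v0d2. Macrophages that take up lipid, as in obese fat tissue, are known to enlarge their lysosomes and to express genes such as Gpnmb, Trem2, Cd68 and Lgals3. Muscle tissue holds resident macrophages between its fibres and around the fat cells that lie among them. In RNA from whole muscle, a change in the number of such cells and a change in RNA per cell cannot be told apart.

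RefSeq start windows (assembly GRCm38.p6, 250 bases before to 50 after the start) were given for 6 of the 9 genes, Cd68, Gpnmb, Itgax, Lgals3, Mmp12 and Trem2. They are shown because 4 motifs of factors known from macrophages and lysosome genes were searched in them on both strands. TGAGTCA or its reverse complement, the letters bound by AP-1 factors, stood in the windows of 4 of the 6 genes and in those of 5.95% of the 27025 genes in the table. CACGTG, the core of the motif of MiT/TFE factors, stood in 0 of the 6 genes and in 8.09% of all genes. Its variant CATGTG stood in 1, Mmp12, and in 15.9% of all genes. GAGGAAGT, which is bound by PU.1, also stood in Mmp12 alone and in 3.69% of all genes. The 4 windows with TGAGTCA follow, each read 5′ to 3′ along the gene's strand, with the motif in capitals. In Cd68 the motif began 149 and 24 bases before the start, in Itgax 56 and in the second Mmp12 window 44, while in Gpnmb it began 8 bases after the start on the opposite strand. A match describes letters only and is not a measured binding site.
Cd68 (chr11:69666121-69666420, minus strand): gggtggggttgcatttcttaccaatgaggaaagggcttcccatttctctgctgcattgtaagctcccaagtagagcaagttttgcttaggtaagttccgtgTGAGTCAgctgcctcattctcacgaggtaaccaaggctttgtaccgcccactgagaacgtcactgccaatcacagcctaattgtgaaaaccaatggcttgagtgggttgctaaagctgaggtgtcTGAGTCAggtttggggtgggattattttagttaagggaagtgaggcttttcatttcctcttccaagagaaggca
Gpnmb (chr6:49036268-49036567, plus strand): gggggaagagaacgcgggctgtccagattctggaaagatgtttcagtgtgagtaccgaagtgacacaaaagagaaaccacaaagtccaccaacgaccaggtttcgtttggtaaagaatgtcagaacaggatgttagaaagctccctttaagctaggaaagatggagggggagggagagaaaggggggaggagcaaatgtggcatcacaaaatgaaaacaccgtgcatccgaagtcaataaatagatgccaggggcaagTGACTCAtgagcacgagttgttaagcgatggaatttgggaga
Itgax (chr7:128129300-128129599, plus strand): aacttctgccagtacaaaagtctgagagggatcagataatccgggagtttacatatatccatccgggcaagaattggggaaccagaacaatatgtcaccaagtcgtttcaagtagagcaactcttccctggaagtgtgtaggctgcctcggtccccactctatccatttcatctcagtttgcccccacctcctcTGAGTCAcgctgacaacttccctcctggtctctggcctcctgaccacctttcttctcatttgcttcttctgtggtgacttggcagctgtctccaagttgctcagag
Mmp12 (chr9:7347124-7347423, plus strand): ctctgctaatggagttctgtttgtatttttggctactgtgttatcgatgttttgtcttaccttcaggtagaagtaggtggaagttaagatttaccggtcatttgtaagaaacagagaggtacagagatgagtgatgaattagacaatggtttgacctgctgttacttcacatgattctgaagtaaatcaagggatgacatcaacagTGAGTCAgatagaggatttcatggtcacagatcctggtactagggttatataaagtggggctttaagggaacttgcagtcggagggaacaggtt

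Values are the deposited scores, a log-type measure that was rescaled on every array to average 8.0 with a standard deviation (SD) of 2.0, so 1 unit is 0.5 of that SD. The log base was not given in the sources used here. The labelled tissue was checked on 9 genes of muscle fibres, whose mean lay between 13.71 and 14.22 units on every array. Strain BXD98 stood apart in the genes described here and in Lep, in which its arrays went against their diet labels. The labels were kept. Its CD array was the highest of the 42 CD arrays for Atp6v0d2, Cd68, Mmp12, Itgax, Lgals3 and Emr1, and its HFD array was the lowest of 37 for Mmp12 and Trem2. Lep, the leptin gene of fat cells, which was higher on HFD in 35 of 37 strains, was 10.141 on CD and 8.956 on HFD in BXD98. Over the 17778 brighter probesets, however, the HFD minus CD profile of BXD98 correlated with the mean of the other strains at r = 0.216. That r ranked 6 from the lowest of 37, in a range from -0.118 to 0.573. The lowest was BXD63, whose profile was the only one below 0 and whose Lep was 8.845 on CD and 10.103 on HFD. Results of the 9 genes that rest on either strain are given without it, while counts of gene lists include both strains unless stated.

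Atp6v0d2 had the largest diet difference of the 9 genes. On CD its score was 5.464 at the lowest, 5.89 at the median and 8.064 at the highest, and on HFD it was 5.627, 6.59 and 8.51. The highest CD value was that of BXD98, and the next was 6.354 in BXD65. Of the 37 HFD arrays, 28 lay above every CD array other than that of BXD98, and 3 lay above that one as well. As a rough measure of background, since probesets differ in affinity, the 1154 olfactory receptor probesets had a median of 6.061, and Atp6v0d2 lay above their 95th percentile of the same array in 1 CD array, that of BXD98, and in 6 HFD arrays. On CD it was thus not told apart from background in the other 41 strains, and its diet difference is a lower bound at best. The measured mean was 0.91 units higher on HFD (SE 0.12, 42 CD and 37 HFD arrays). It was 0.88 in batch 1 alone, 0.93 in batch 2 alone, 0.98 without BXD98 and 0.94 without BXD63. Within strains Atp6v0d2 was higher on HFD in 35 of 37. The exceptions were BXD98, with a difference of -1.83, and BXD63, with a difference of -0.47.

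The SD of Atp6v0d2 between strains was 0.68 units on HFD and 0.39 on CD, or 0.21 on CD without BXD98. With the CD scores at background, the narrow spread on CD cannot be told apart from a floor. The highest HFD scores were 8.51 in BXD69, 8.231 in BXD51, 8.133 in BXD62, 7.914 in BXD79 and 7.913 in BXD85. On CD these strains stood at 6.152, 5.891, 5.688, 5.834 and 6.295, inside the range of the other strains. The largest rise was 2.45 units in BXD62. The parental strains had 5.864 on CD and 6.305 on HFD (C57BL/6J) and 5.944 and 6.332 (DBA/2J), within the range not told apart from background.

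**Figure D1:**
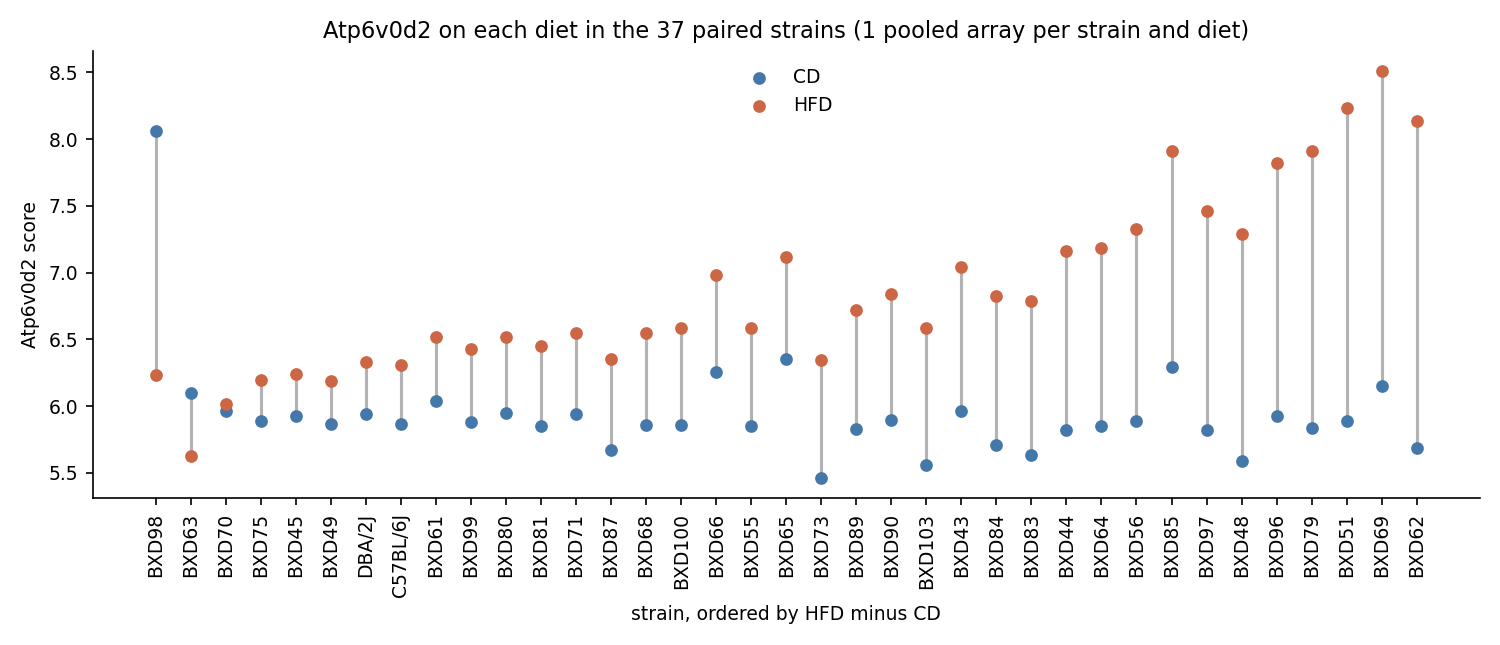
Atp6v0d2 score (vertical axis, units of the deposited score) on CD (blue) and HFD (orange) in each of the 37 paired strains, ordered by the difference from BXD98 to BXD62, with 1 pooled array per strain and diet. The CD points other than BXD98 form a narrow band from 5.464 to 6.354, while the HFD points spread up to 8.51.

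Among the macrophage genes, Mmp12, a secreted elastase of macrophages, came next. Mmp12 was 6.837 at the lowest, 7.26 at the median and 8.811 at the highest on CD, and 7.159, 7.94 and 9.225 on HFD. The mean was 0.68 units higher on HFD (SE 0.11), with 35 of 37 strains higher, all but BXD70 and BXD98. It lay above the olfactory receptor percentile in 5 CD and 27 HFD arrays, so most of its CD scores were not told apart from background either. Cd68, a membrane protein of macrophage lysosomes, had a median of 8.55 on CD and 8.88 on HFD. Cd68 was 0.39 units higher on HFD (SE 0.073), with 34 of 37 strains higher. Emr1 (now Adgre1), which encodes a surface receptor of mature macrophages, had medians of 7.87 and 8.25. Emr1 was 0.37 units higher (SE 0.062), with 31 of 37 strains higher, and 20 of 37 HFD arrays lay above every CD array but BXD98.

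Gpnmb, Lgals3 and Trem2 differed less, and in these the diets overlapped widely. Gpnmb, a membrane glycoprotein of phagocytes, ranged from 7.386 to 9.079 on CD and from 7.403 to 10.139 on HFD. Gpnmb was 0.35 units higher on HFD (SE 0.14), with 29 of 37 strains higher. The SD of its differences within strain was 0.425, beside 0.492 between strains on CD and 0.722 on HFD, and the SE does not use the former. Lgals3, which encodes galectin-3, a lectin released by activated macrophages, ranged from 8.831 to 9.864 on CD and from 8.685 to 10.672 on HFD. Lgals3 was 0.24 units higher (SE 0.077), with 29 of 37 strains higher. Trem2, a lipid-sensing receptor of macrophages, was 0.11 units higher (SE 0.038), with 25 of 37 strains higher. In 10 of 37 HFD arrays Gpnmb lay above its whole CD range, against 5 for Lgals3 and 5 for Trem2.

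For Itgax and Ccl2 the 95% intervals of the diet difference, from -0.168 to 0.036 and from -0.015 to 0.127, included 0. Itgax, which encodes the integrin CD11c of dendritic cells and of macrophages in obese fat, had a mean of 7.26 on CD and 7.20 on HFD. Itgax differed by -0.07 units (SE 0.052), and 19 of 37 strains were higher on HFD. It lay above the olfactory receptor percentile in 1 CD and 2 HFD arrays, so nearly equal means on the diets may be those of background. For Cd68, Trem2 and Lgals3 every array lay above that percentile, and for Gpnmb, Emr1 and Ccl2 at least 28 of 42 CD and 31 of 37 HFD arrays did. Ccl2, the chemokine that draws monocytes into tissue, had a mean of 7.80 on CD and 7.85 on HFD. Ccl2 differed by 0.06 units (SE 0.036), and 20 of 37 strains were higher.

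Over all 35556 probesets the limma diet fit called 38.1% at an adjusted p below 0.05, 18.9% higher and 19.3% lower on HFD, and 7 of the 9 genes were among those called higher. Since the genes were chosen on this contrast, nothing is read from that count. All 9 genes were higher on HFD in 7 of 37 strains, and 8 of 9 were higher in 11 more. In BXD98 all 9 were lower on HFD.

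**Figure D2:**
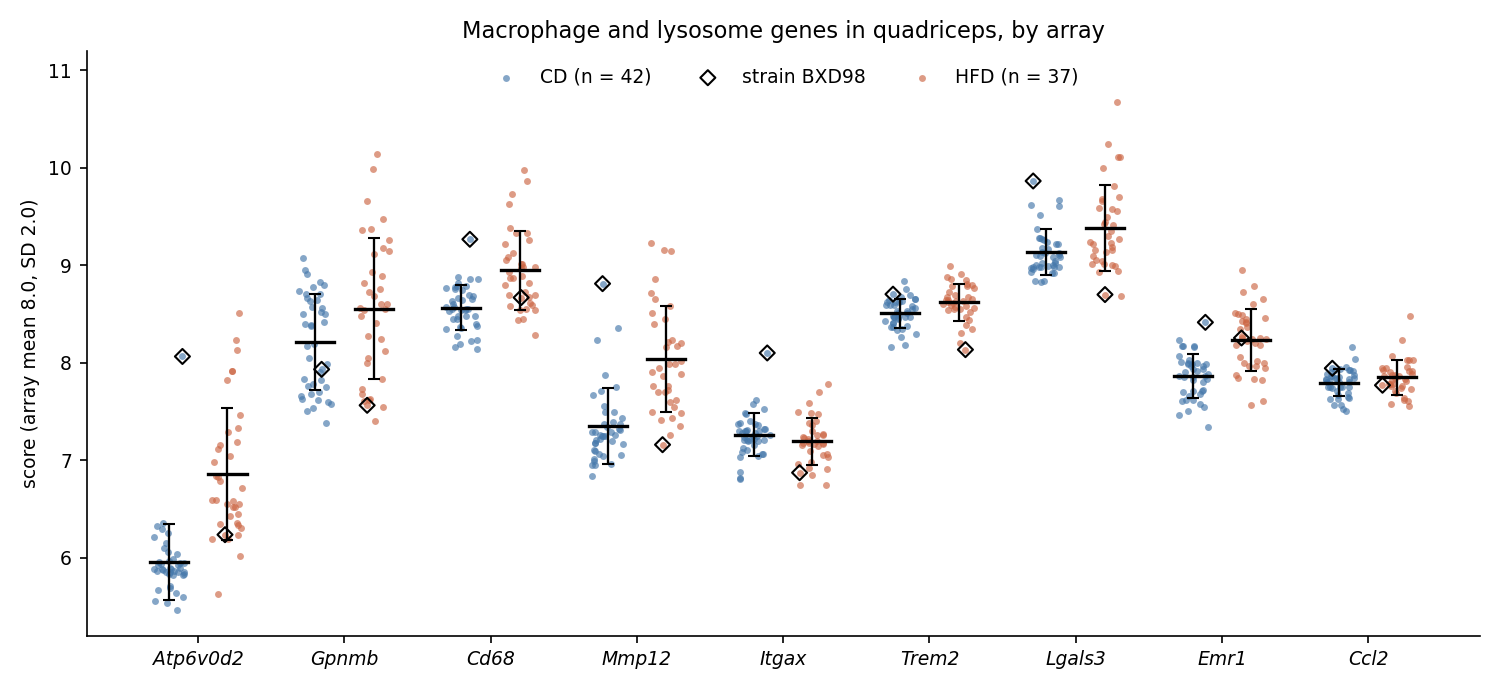
Score of each gene (vertical axis) on every CD array (blue, n = 42) and HFD array (orange, n = 37), with the mean and the SD between strains in black and strain BXD98 as open diamonds. Of the 37 HFD points, 36 lie above the CD median (not drawn) for Atp6v0d2 and for Mmp12. The number is 32 for Cd68 and Emr1, 30 for Trem2, 27 for Lgals3 and 23 for Gpnmb. Itgax (12) and Ccl2 (21) overlap nearly in full. The CD diamond of BXD98 sits at the top of the CD points of Atp6v0d2, Cd68, Mmp12, Itgax, Lgals3 and Emr1.

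On HFD, strains with more Atp6v0d2 also had more Lgals3, Mmp12, Cd68, Emr1 and Itgax. The limma fit of each probeset on the Atp6v0d2 score, with batch, called 0.366% of 35555 probesets as rising with it over the 37 HFD arrays, in 6 of which Atp6v0d2 lay above the olfactory receptor percentile, and 5 of the 8 other genes were among them. Lgals3 rose by 0.54 units per unit of Atp6v0d2 (SE 0.061, adjusted p = 9.18e-07). Mmp12 rose by 0.67 (SE 0.074, adjusted p = 9.18e-07) and Cd68 by 0.43 (SE 0.069, adjusted p = 0.000492). Emr1 rose by 0.29 (SE 0.063, adjusted p = 0.024) and Itgax by 0.21 (SE 0.049, adjusted p = 0.033). The slope was 0.52 for Gpnmb (SE 0.15, adjusted p = 0.0974), 0.12 for Trem2 (SE 0.043, adjusted p = 0.166) and 0.07 for Ccl2 (SE 0.044, adjusted p = 0.434), none of which passed.

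The same 8 relations were taken as correlations with two-sided permutation tests, for which 1e-05 is the smallest p that the 100000 draws can give; the adjusted p-values of the fit above cover the number of probesets tried. Mmp12 had r = 0.831 (rho = 0.806, permutation p = 1e-05 for both). Its r was 0.741 in batch 1, 0.903 in batch 2 and 0.769 without the 2 strains farthest from the Atp6v0d2 median, BXD69 and BXD51. Lgals3 had r = 0.828 (rho = 0.737, permutation p = 1e-05 for both), with 0.744 and 0.907 in the batches and 0.766 without those strains. Cd68 had r = 0.725 (permutation p = 1e-05) and rho = 0.559 (permutation p = 0.00038), and its r was 0.599 without those strains.

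Emr1 had r = 0.603 (permutation p = 0.00011, rho = 0.48 with p = 0.00299) and Itgax had r = 0.588 (permutation p = 0.00021, rho = 0.608 with p = 0.00015). Without BXD69 and BXD51 these were 0.542 and 0.670. Gpnmb had r = 0.489 (permutation p = 0.00222, rho = 0.386 with p = 0.0186), with 0.228 in batch 1 and 0.664 in batch 2. Trem2 had r = 0.417 (permutation p = 0.0106, rho = 0.428 with p = 0.00881). Ccl2 had r = 0.244 (permutation p = 0.149, rho = 0.103 with p = 0.545). Thus the order ran from Mmp12 and Lgals3, whose r were nearly equal, to Ccl2. Itgax lay above the olfactory receptor percentile in 2 of the 37 HFD arrays and Atp6v0d2 in 6. Their relation between strains, like the nearly equal Itgax means on the diets, thus rests mostly on scores not told apart from background.

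BXD51 had the highest HFD score of all strains for Mmp12 (9.225), Lgals3 (10.672) and Ccl2 (8.481) and the second highest for Atp6v0d2 (8.231), Cd68 (9.866) and Trem2 (8.906). BXD69 had the highest for Atp6v0d2 (8.51), Gpnmb (10.139) and Cd68 (9.981), but ranked 16 for Itgax (7.22) and 20 for Trem2 (8.625). BXD62, which ranked 3 for Atp6v0d2 and Cd68, had the highest Emr1 (8.956) and ranked 24 for Gpnmb (8.272).

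Of 14 fat cell markers, 2 rose with Atp6v0d2 on HFD, beside 0.366% of all probesets. The mean of the 14 adipocyte genes ran from 9.31 to 10.55 units on CD and from 9.38 to 10.82 on HFD, was higher on HFD in 31 of 37 strains (9 genes called higher and 1, Cfd, lower), and correlated with Atp6v0d2 at r = 0.496 on HFD. Lep (slope 0.68, SE 0.14, adjusted p = 0.0105) and Fabp4 (slope 0.26, SE 0.052, adjusted p = 0.00833), a fatty acid carrier of fat cells and macrophages, passed. With the adipocyte mean as a second covariate, Mmp12 still rose with Atp6v0d2 (slope 0.61, adjusted p = 0.000287), as did Lgals3 (slope 0.43, adjusted p = 0.000308). Cd68 (slope 0.33, adjusted p = 0.0565), Emr1 (slope 0.21, adjusted p = 0.149) and Itgax (slope 0.16, adjusted p = 0.155) no longer passed. Without BXD69 and BXD51, Cd68 (slope 0.35, adjusted p = 0.0679) and Emr1 (slope 0.29, adjusted p = 0.14) did not pass either. With the olfactory receptor mean as a covariate, Emr1 (slope 0.27, adjusted p = 0.195) and Itgax (slope 0.23, adjusted p = 0.0967) did not pass. With ranks in place of scores, only Mmp12 passed (adjusted p = 0.0305), and Lgals3 did not (adjusted p = 0.0852). In batch 1 alone, with 17 HFD arrays, 0 probesets passed (2463 at an unadjusted p below 0.05), and the slopes of Mmp12 and Lgals3 were 0.51 and 0.49. With both diets in one fit and strain as a replicate block, Gpnmb passed (slope 0.39, adjusted p = 0.000463) and Itgax did not (slope 0.21, adjusted p = 0.338). With a term for each strain, that fit measures differences between diets within strain, not the relation between strains on HFD.

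**Figure D3:**
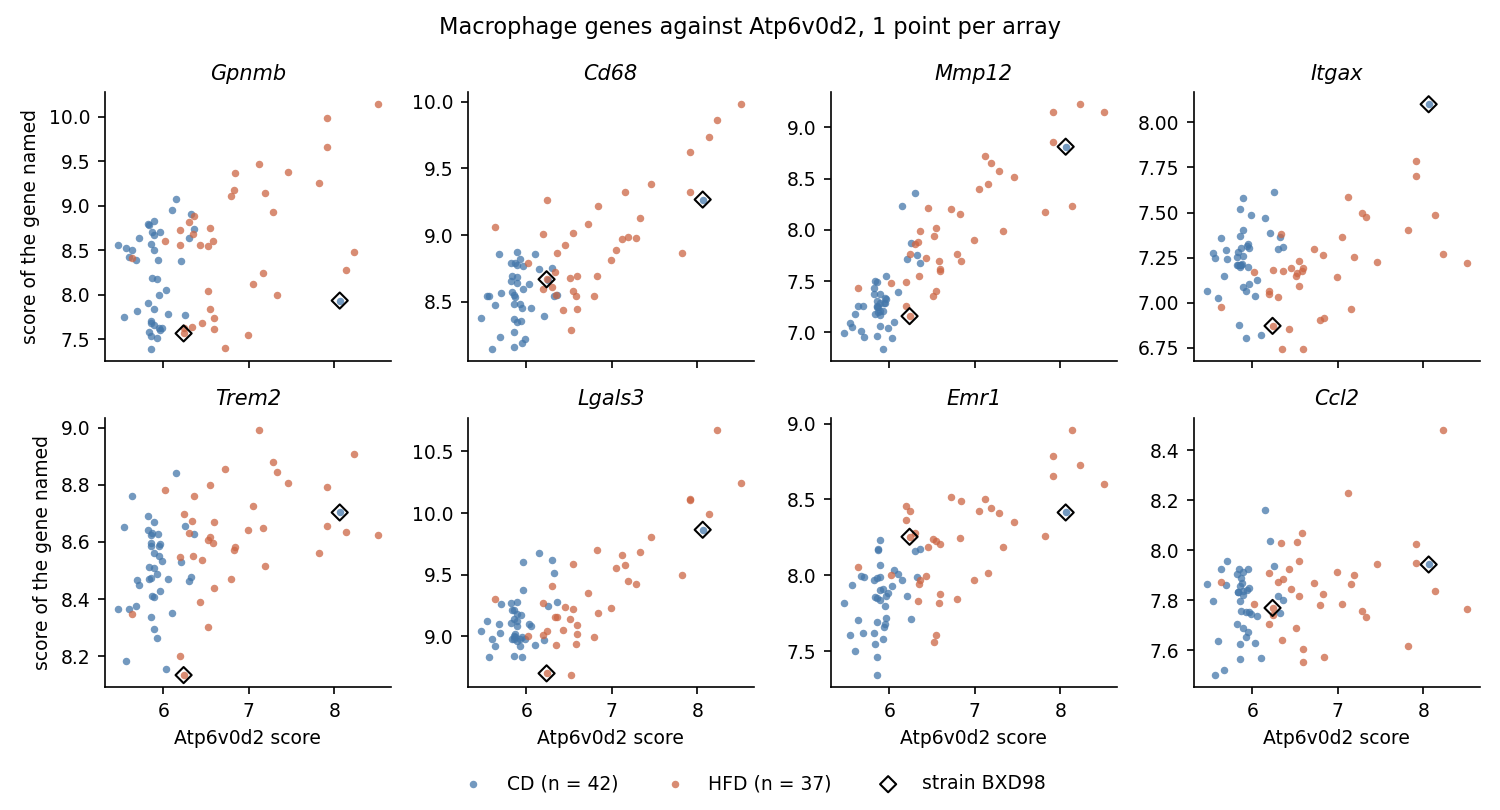
Score of each of the 8 other genes (vertical axis) against the Atp6v0d2 score (horizontal axis) on CD arrays (blue, n = 42) and HFD arrays (orange, n = 37), 1 point per array, with both arrays of BXD98 as open diamonds. On HFD, Mmp12 (r = 0.831) and Lgals3 (r = 0.828) climb along a narrow line and Ccl2 (r = 0.244) scatters, while the CD points other than BXD98 crowd at low Atp6v0d2.

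On CD Atp6v0d2 lay within background in all strains but BXD98, so slopes and correlations on it there, and those between diets, rest on scores not told apart from background. Its CD values formed separate clusters of 41 strains and of BXD98 alone. Over all 42 CD arrays the fit called 0.00281% of 35555 probesets as rising with Atp6v0d2, which is 1 probeset, that of Mmp12 (slope 0.78, SE 0.097, adjusted p = 1.63e-05). Without BXD98 the fit called 0.0253% of probesets, which is 9, and the slope of Mmp12 was 1.08 (SE 0.19, adjusted p = 0.00964). The Mmp12 scores themselves fell into clusters of 35 strains with a mean of 7.21 and 7 strains, BXD98 among them, with a mean of 8.06. Within the 35 the correlation was r = 0.258 (permutation p = 0.134, rho = 0.181 with p = 0.297). In the other 6 strains it was r = -0.389 (exact permutation p = 0.425, rho = -0.429 with p = 0.419). These clusters were cut on Mmp12 itself, which narrows its range and lowers r within them, and the split only just met the rule (Ashman's D 2.05, a gain in BIC of 12.3), so the relation on CD was not settled by them.

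Over the 41 CD strains without BXD98, Lgals3 had r = 0.455 with Atp6v0d2 (permutation p = 0.00308, rho = 0.276 with p = 0.0808) and Emr1 had r = 0.343 (permutation p = 0.029, rho = 0.349 with p = 0.0253). In the fit without BXD98 their slopes were 0.50 (SE 0.15, adjusted p = 0.328) and 0.34 (SE 0.16, adjusted p = 0.534), which did not pass. For Gpnmb, Cd68, Itgax, Trem2 and Ccl2, r lay between 0.136 and 0.221 with permutation p-values from 0.168 to 0.394. Whether the slopes differed between diets was tested over all 79 arrays. The interaction called 0.0% of 35555 probesets (2459 at an unadjusted p below 0.05, and 1 with strain as a replicate block). Over all arrays Gpnmb had the largest difference in slope of the 8 genes, 0.53 units per unit steeper on HFD (SE 0.26, adjusted p = 0.718), but it was 0.14 (SE 0.46) without BXD98. Without that strain Mmp12 had the largest, in the other direction, at -0.41 (SE 0.22, adjusted p = 0.469). A difference between the diets in these relations was therefore not shown.

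Strains in which Atp6v0d2 rose more on HFD also had larger rises in Cd68, Lgals3, Mmp12 and Gpnmb. These differences use the same arrays as the fits within each diet and are no separate evidence. Over the 37 paired strains, with batch terms, 0.0956% of 35555 probesets rose with the Atp6v0d2 difference, and these 4 of the 8 genes were among them. Per unit of Atp6v0d2 difference the slope was 0.41 for Cd68 (SE 0.049, adjusted p = 1.18e-05) and 0.43 for Lgals3 (SE 0.052, adjusted p = 1.18e-05). It was 0.59 for Mmp12 (SE 0.075, adjusted p = 2e-05) and 0.39 for Gpnmb (SE 0.060, adjusted p = 0.000792). Without BXD98 the adjusted p-values of these 4 genes were between 0.000417 and 0.00879. None of the 4 passed with ranks in place of scores (adjusted p from 0.277 to 0.303) or in batch 1 alone (from 0.35 to 0.676), and Gpnmb did not pass in batch 2 alone (0.147). Their slopes in batch 1 alone ran from 0.347 (Cd68) to 0.552 (Mmp12), and that of Gpnmb in batch 2 alone was 0.38. Emr1 (slope 0.25, adjusted p = 0.0983), Itgax (0.21, adjusted p = 0.414), Trem2 (0.13, adjusted p = 0.592) and Ccl2 (0.03, adjusted p = 0.951) did not pass.

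As correlations of differences, Cd68 had r = 0.821, Lgals3 had r = 0.820 and Gpnmb had r = 0.742 over 37 strains (permutation p = 1e-05 for each), with rho of 0.687, 0.728 and 0.712. The Mmp12 differences set BXD98 apart from the other strains, and over the other 36 strains r was 0.695 (permutation p = 1e-05, rho = 0.681). Within the 12 strains with both arrays in batch 1, r was between 0.646 and 0.866 for these 4 genes. The corresponding range in batch 2 was from 0.780 to 0.944. In the 8 strains whose arrays came from different batches r was 0.274 for Mmp12 and from 0.715 to 0.831 for the others. Emr1 had r = 0.601 (permutation p = 0.00007, rho = 0.547). Itgax had r = 0.478 (permutation p = 0.00342, rho = 0.263 with p = 0.116), but r was 0.207 without BXD98 and BXD62, and the slope fell from 0.21 to 0.11 without BXD98 alone. Its r was -0.03 in batch 1, 0.83 in batch 2, which held BXD98, and -0.172 in the strains of different batches. That relation thus depended on BXD98 and differed between batches. Trem2 (r = 0.406, permutation p = 0.0132) fell to 0.176 without BXD98 and BXD62, and Ccl2 had r = 0.058 (permutation p = 0.73).

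**Figure D4:**
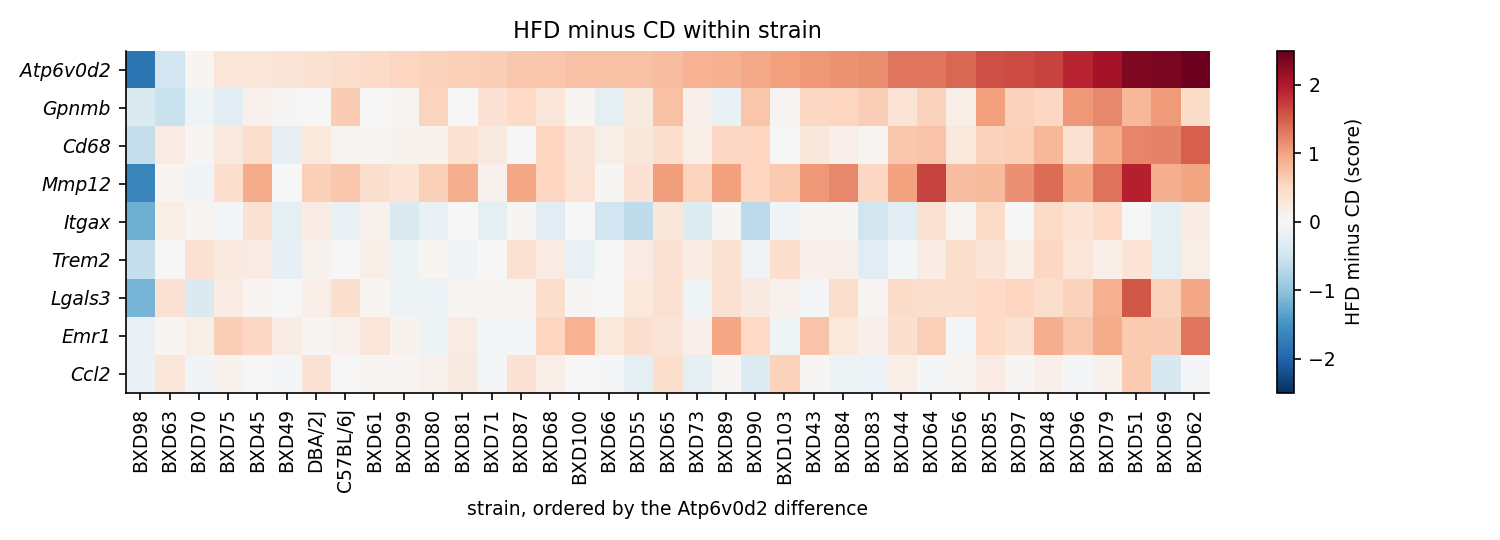
HFD minus CD difference of each gene (rows, colour in units of the score, red higher on HFD) in the 37 paired strains (columns), ordered by the Atp6v0d2 difference from BXD98 (-1.83) to BXD62 (2.45). Red deepens to the right in Cd68, Lgals3, Mmp12 and Gpnmb as it does in Atp6v0d2, while Ccl2 shows no such order and the BXD98 column is blue in all 9 rows.

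Whether a strain kept its level between diets was asked next, over the 37 paired strains after batch means were removed. Across 35556 probesets 10.5% correlated positively between diets, and Gpnmb was the only one of the 9 genes among them. Gpnmb had r = 0.819 (permutation p = 1e-05, rho = 0.781, adjusted p = 7.25e-08 over all probesets), and its r was 0.797 after the 2 strains with the most extreme CD scores were left out. Its CD scores split into groups of 19 strains (mean 7.72) and 23 strains (mean 8.61) in a mixture of 2 components, although the gain in BIC, 7.9, was short of the 10 set for calling clusters. For Atp6v0d2, r over all 37 strains was -0.073 (adjusted p = 0.864), from which nothing is read because BXD98 formed its own CD cluster. Without BXD98 its r was 0.139 (permutation p = 0.419, rho = -0.102 with p = 0.556), which did not pass.

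Lgals3 had r = 0.333 between diets (adjusted p = 0.204), and 0.543 without BXD98 (permutation p = 0.00077, rho = 0.537, adjusted p = 0.01). Cd68 had r = 0.279 and 0.382 without BXD98 (adjusted p = 0.129). For Mmp12, r was 0.227 over all 37 strains and 0.488 without BXD98, from which nothing is read because its CD scores formed clusters, and within the 32 strains of its lower CD cluster r was 0.180 (permutation p = 0.325). For Itgax, Trem2, Emr1 and Ccl2, r between diets lay between -0.142 and 0.210. Among the lists, 11 of 29 lysosome genes correlated between diets, led by Gaa (r = 0.795) and Asah1 (r = 0.750), and so did 12 of 28 macrophage genes, led by Mertk (r = 0.587) and Mrc1 (r = 0.586), and 5 of 24 V-ATPase genes.

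The parents differed most in Gpnmb. DBA/2J is known to carry a premature stop codon in Gpnmb, and genotypes of the BXD strains were not analysed here. C57BL/6J had 8.189 on CD and 8.817 on HFD, and DBA/2J had 7.622 and 7.632. The difference was 0.88 units (SE 0.30), but with 1 array per parent and diet it did not pass over all probesets (adjusted p = 0.185), where the limma contrast called 1.26%. With a term for each strain in that fit, the errors come from the spread of diet differences over all paired strains. Emr1 was 0.41 units higher in C57BL/6J (SE 0.25, adjusted p = 0.77), and none of the 9 genes passed. The Atp6v0d2 scores of the parents differed by -0.05 units (SE 0.56).

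Other subunits of the proton pump had smaller diet differences than Atp6v0d2. As for the 9 genes, the diet calls of the gene lists are a description, since the lists were drawn up with diet results known, and 18.9% of all probesets were called higher. The counts that rose with Atp6v0d2 on HFD, here and in the lists that follow, stand beside 0.366% of all probesets. Of 24 subunits and accessory proteins, 9 were called higher on HFD, 4 lower and 11 neither, and their median difference was 0.065 units, beside a median of -0.0007 over all probesets. The largest were Atp6v0a1 (0.22 units higher) and Atp6v1a (0.165 units higher), the latter a catalytic subunit, while Atp6v1g2 and Atp6v1e2 were lower by 0.135 and 0.125. Atp6v0d1, the common isoform of the d subunit, had a mean of 10.95 on CD and 10.94 on HFD and a difference of -0.01 (SE 0.031). On HFD, Atp6v1a (slope 0.17, adjusted p = 0.0163) and Atp6v0e (slope 0.15, adjusted p = 0.0138) rose with Atp6v0d2, and the slope of Atp6v0d1 was 0.08 (adjusted p = 0.217).

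Lysosome genes were called higher on HFD in 12 of 29 cases and lower in 0, with a median difference of 0.09 units. Lipa, the lysosomal acid lipase, was 0.36 units higher (29 of 37 strains), and Ctss, a protease of antigen-presenting cells, was 0.35 units higher (35 of 37 strains). Npc2, a cholesterol carrier of lysosomes, was 0.24 units higher and Gla, the alpha-galactosidase, 0.23. On HFD all 29 lysosome genes had slopes above 0 on Atp6v0d2 and 4 passed, Lipa (slope 0.41, adjusted p = 2.13e-06), Ctss (0.37, adjusted p = 3.2e-05), Lgmn (0.17, adjusted p = 0.0473) and Lamp2 (0.12, adjusted p = 0.0422). Of the 4 MiT/TFE factors, which drive lysosome genes, Tcfe3 (now Tfe3) was 0.18 units higher and Mitf 0.11 lower on HFD, and none passed against Atp6v0d2 on HFD.

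Of 28 general macrophage markers, 18 (64.3%) were called higher on HFD and 1, Fcgr1, lower, with a median difference of 0.14 units. The share was the same for the 14 adipocyte genes, whose median difference was 0.28 units. Laptm5 (0.38 units higher, 32 of 37 strains), Mpeg1 (0.33, 31 strains), Cybb (0.30, 32 strains) and C1qb (0.29, 31 strains) led. On HFD, 3 rose with Atp6v0d2, Mpeg1 (slope 0.41, adjusted p = 1.96e-05), Laptm5 (0.26, adjusted p = 0.0475) and the adaptor Tyrobp (0.255, adjusted p = 0.00457). In lipid-handling macrophage genes, 7 of 12 were higher on HFD and 1, the cholesterol exporter Abca1, was lower, and Fabp5 (slope 0.22, adjusted p = 0.0136) and Clec7a (0.19, adjusted p = 0.0145) rose with Atp6v0d2. Nceh1, a cholesterol ester hydrolase, was 0.37 units higher. Some of these genes, such as Cd36 and Plin2, are also used by muscle fibres and fat cells.

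Of 19 chemokines, chemokine receptors and inflammatory cytokines, 12 were called higher on HFD, the cytokine Il1b among them, and 1, the cytokine Il6, lower. The Il6 means, 5.05 on CD and 4.85 on HFD, lay below the olfactory receptor median, so its difference is one between scores at background. Ccl9 (0.42 units), Cxcl12 (0.27) and the Ccl2 receptor Ccr2 (0.23) led. Ccl6 (slope 0.36, adjusted p = 0.00117), Ccl8 (0.34, adjusted p = 0.0326) and Ccl9 (0.30, adjusted p = 0.00272) rose with Atp6v0d2 on HFD, although Ccl2 did not pass. Of 10 osteoclast genes, 0 were called higher on HFD and 2, Mmp9 and Oscar, were lower by 0.194 and 0.135, and the fusion gene Tm7sf4 (now Dcstamp) differed by 0.02. Ctsk, a collagen-degrading protease, was the 1 of these that rose with Atp6v0d2 on HFD (slope 0.22, adjusted p = 0.0473). The mean of the 10 genes correlated with Atp6v0d2 at r = 0.328 on HFD and at r = 0.589 on CD without BXD98. On those CD arrays Atp6v0d2 was not told apart from background. The other list means there had r from -0.098 (skeletal muscle) to 0.502 (chemokine), with 0.412 for the general macrophage mean.

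Other blood and tissue cells were checked the same way. On HFD, 0 of 9 neutrophil, 0 of 11 lymphocyte and 0 of 5 dendritic cell genes rose with Atp6v0d2, and their median slopes were -0.06, -0.04 and -0.05. With 0.366% of all probesets called, lists this short would mostly hold 0, so nothing is read from these counts. The list means on HFD were also low, from 6.6 to 7.22 for neutrophil and from 6.83 to 7.22 for lymphocyte genes. Itgax, most of whose scores were not told apart from background, had a mean of 7.195 there. Between diets, 3 neutrophil genes were called lower on HFD, Ly6g (-0.28), S100a8 (-0.26) and Mpo (-0.11), and 1, Cxcr2 (0.18), higher. Of the lymphocyte genes 5 were called lower, down to -0.14 in Lck, and 1, Cd2 (0.12), higher. Of the dendritic cell genes Xcr1 (0.10) and Zbtb46 (0.06) were called higher and Clec9a (-0.17) lower. Of 6 mast cell genes, Cpa3 (slope 0.36, adjusted p = 0.0186) and Mcpt4 (0.25, adjusted p = 0.00218), proteases of mast cell granules, rose with Atp6v0d2. The mast cell mean correlated with Atp6v0d2 at r = 0.716 on HFD, beside 0.526 for the general macrophage mean, 0.738 for the lysosome mean and 0.750 for the lipid-handling macrophage mean. No gene of the muscle regeneration (7), skeletal muscle (9) or endothelium and fibroblast (6) lists passed. The skeletal muscle mean correlated with Atp6v0d2 at r = -0.400 on HFD. On CD no gene of these lists passed against Atp6v0d2 over all 42 arrays, and without BXD98 only Lep did (slope 2.92, adjusted p = 0.00991). With strain as a replicate block over both diets, 40 probesets rose with Atp6v0d2. Since that fit compares the diets within strain, its count stands beside the 34 called for strain differences, not the 130 on HFD. Of the lists, 2 lysosome, 2 macrophage, 2 chemokine and 1 lipid-handling gene passed in that fit, and 0 of the V-ATPase, osteoclast, adipocyte and mast cell genes. The part of fat, mast cell and fibre content in the relations to Atp6v0d2 was not tested beyond the adipocyte covariate above.

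**Figure D5:**
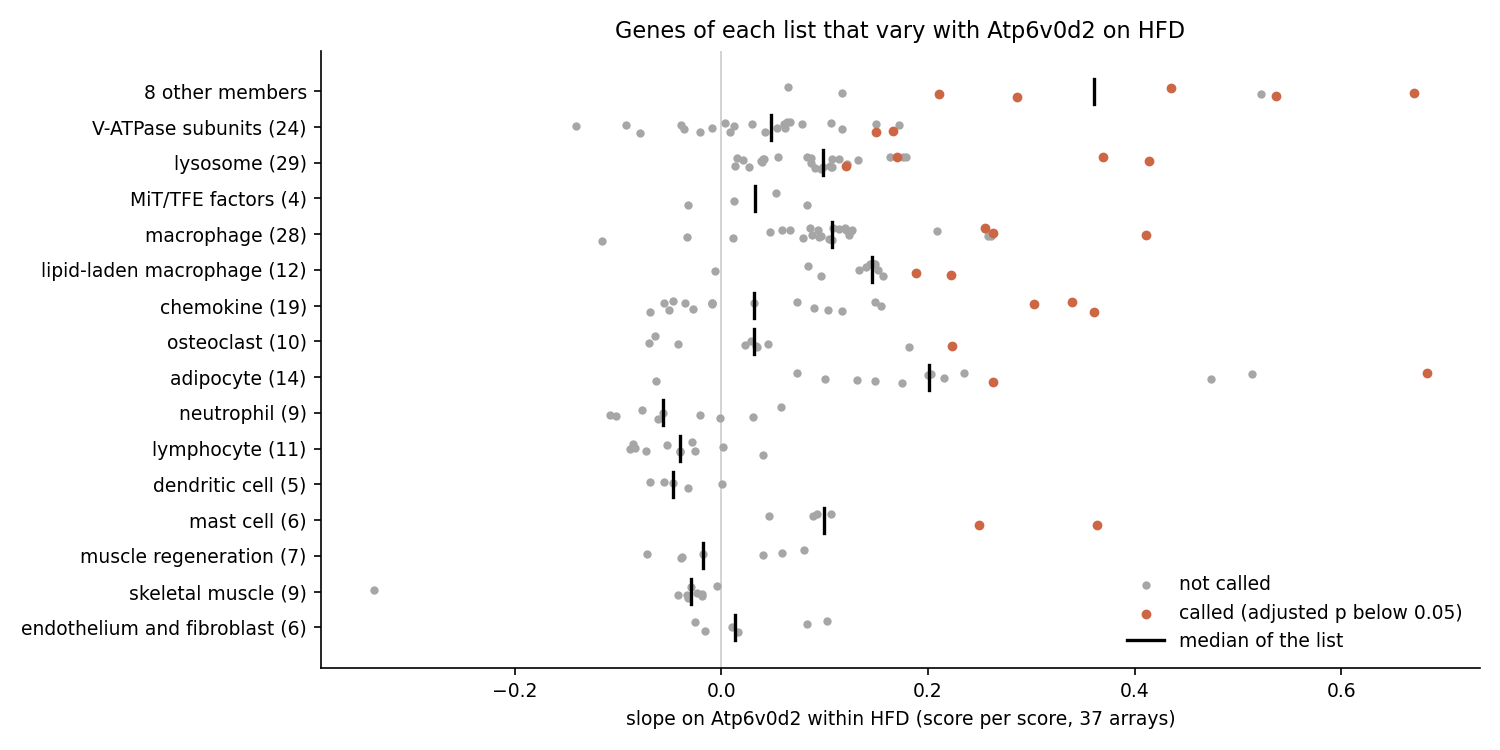
Slope of each gene on Atp6v0d2 within HFD (horizontal axis, score per score, 37 arrays), 1 point per gene, by list (rows, number of genes in brackets), with genes that passed at an adjusted p below 0.05 in orange and the list median as a bar. All lysosome genes lie right of 0, and 4 of them passed. No gene of the neutrophil, lymphocyte and dendritic cell lists passed, from which nothing is read, since 0.366% of all probesets did.

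The genes whose strain pattern was most like that of Atp6v0d2 were taken over all 79 arrays after diet and batch means were removed, from 26220 other probesets with a symbol. As a description with no test, Mmp12 (r = 0.811) and Lgals3 (0.776) were first and second. Il7r (0.770), the interleukin-7 receptor, Lipa (0.734), Itgb2 (0.725), the shared chain of leukocyte integrins, Tm4sf19 (0.716), Dpep2 (0.704), Ctss (0.692), Tlr13 (0.685), a receptor for bacterial RNA, and Stap1 (0.667) followed. Cd68 (0.666) ranked 11, Itgax (0.580) 30, Emr1 (0.566) 39, Trem2 (0.362) 376, Gpnmb (0.335) 523 and Ccl2 (0.243) 1667. Without BXD98 the values of the first 10 lay between 0.664 and 0.776. Of these 10 genes, 9 had r above 0.73 on HFD, and the lowest, Stap1, had 0.729. On CD without BXD98 their r was lower, from 0.201 in Tlr13 to 0.663 in Mmp12. The Mmp12 value pools its CD clusters, within which r was 0.258 and -0.389. All arrays share the hybridization scale, so these values carry what the arrays have in common.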

How the data were processed

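RNA was measured on 79 Affymetrix Mouse Gene 1.0 ST arrays. The values deposited by the authors are a score per probeset, rescaled to average 8.0 with an SD of 2.0 on every array. Affymetrix Expression Console is named in the submitters' processing notes, while log base, summarization and batch correction are not given in the sources used here. Arrays have no read depth, and their number limits the precision. The design was planned for log2 values, and limma (version 3.58.1, lmFit and eBayes) was run on the scores as log-type values, with Benjamini-Hochberg adjustment over all 35556 probesets (35555 where Atp6v0d2 is the predictor). Batch, from the titles, held 18 CD and 17 HFD arrays (batch 1) and 24 CD and 20 HFD arrays (batch 2), and the labels give RNA extraction and array runs at separate times. The title BXD92a was the only match for CD column BXD92. The members and the gene lists were chosen with earlier results of these data known. Named genes were the 9 members, Atp6v0d1, per list and fit at most 4 called genes of largest size (2 by size where none was called), the 10 genes most like Atp6v0d2 and the strains at the ends of a member's range. BXD98, Atp6v1e2, Fcgr1, Abca1, Il6, Tm7sf4, Plin2, Il1b, Zbtb46 and Lep on CD were added to these once their values had been seen. No pooled correlation was read where a mixture of 2 normal components lowered BIC by at least 10 with Ashman's D above 2. The ranking of genes most like Atp6v0d2 did not apply this rule and is a description alone. Pairing by strain comes from the labels. Deviations of same-strain arrays from their diet means correlated over 0.1 in 34 of 37 pairs. The scripts were tested on simulated data. Software was R 4.3.3, Python 3.11.15, matplotlib 3.10.9, scikit-learn 1.9.0, numpy 2.4.6 and scipy 1.17.1. Alternatives changed array centring, the batch term, the batches used, quantile normalization, dim probesets (mean below the median), strain as a block, extreme strains, ranks and covariates.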

Additional observations from a re-analysis of the deposited data

How the results depend on the processing

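The direction of the diet difference of Atp6v0d2 and its size, between 0.88 and 0.98, held under all 10 alternatives that gave it. Probesets called by diet fell from 13551 to 4491 in batch 1 alone, 8691 in batch 2 alone and 5292 with dim probesets removed, which tests fewer probesets, and the methods' t-test called 13650 after adjustment and 16450 before it. In batch 1 alone the genes called higher on HFD fell to 3 V-ATPase, 6 lysosome and 7 macrophage genes, with fewer arrays. Without BXD98 list counts moved too, for example 6 lysosome genes rising with Atp6v0d2 on HFD in place of 4. Between diets, 9 lysosome genes correlated in place of 11 and 14 macrophage genes in place of 12. Of the dendritic cell genes 1 was called higher on HFD in place of 2. Of the 8 other genes, the number called with Atp6v0d2 on HFD (5) became 2 with the adipocyte mean, 3 with the olfactory receptor mean, 3 without the 2 farthest strains, 3 in batch 2 alone, 3 with dim probesets removed (Mmp12, Itgax and Ccl2 then go untested), 1 with ranks and 0 in batch 1 alone. On CD (1) it became 0 in batch 1 alone and with ranks, 2 with no batch term, 3 after quantile normalization and 3 without BXD63. For strain differences (4) it became 0 in batch 1 alone and with ranks. Between diets (1 of 9) it became 0 in batch 1 alone and 3 without BXD98 (Mmp12, whose pooled value is not read, among them), an alternative chosen after seeing the data. Apart from constructions named here, the cause was not tested.

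Signs turned in the following cases, none of which had passed the adjusted test over all strains. The Gpnmb slope on CD (-0.01) became 0.84 in batch 1 alone, 0.34 without BXD98, 0.23 without the 2 farthest strains, 0.0846 with ranks, 0.0281 with the olfactory receptor mean and 0.0152 after median centring. For strain differences, the Itgax slope became -0.0113 in batch 1 alone and that of Ccl2 -0.0065 without BXD98 and -0.0069 without the 2 farthest. Between diets, r turned for Itgax in batch 1 alone (0.0082), for Mmp12 (from 0.227 to -0.0069, or 0.394 without BXD98), Trem2 (-0.135) and Ccl2 (-0.093) in batch 2 alone, for Atp6v0d2 from -0.073 without BXD98 (0.139) and without the 2 most extreme CD strains (0.129), and for Trem2 without those (-0.035). Without BXD98 the slope difference between diets turned for Itgax (-0.13 to 0.01), Trem2 (0.02 to -0.03) and Emr1 (0.0003 to -0.05). In the 8 strains of different batches, r of the strain differences turned for Itgax (-0.172), Trem2 (-0.256) and Ccl2 (-0.479). There r between diets turned for Trem2 (-0.341), Emr1 (-0.032), Atp6v0d2 (0.458) and Itgax (0.179). The r of Gpnmb on CD without BXD98 (0.136) was -0.064 in batch 2. With strain as a replicate block the diet difference was called for 14441 probesets and, higher on HFD, for 10 V-ATPase, 16 lysosome and 20 macrophage genes. It changed no call among the 9 genes apart from those given for Gpnmb and Itgax above, where the fit measures differences within strain. No gene had another probeset, so that alternative gave no value.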
